A study of Homo sapiens with 2 samples.

Results

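The clustered replication-dependent histone genes are the protein-coding H1, H2A, H2B, H3 and H4 genes of the HIST1, HIST2 and HIST3 clusters. They were chosen by name alone, as genes with an older symbol starting HIST1H, HIST2H or HIST3H or the current symbols that replaced these. Of 70 such genes in RefSeq, 36 were matched by Ensembl identifier to a row among the 64081 rows of the count table, 24 in the HIST1 cluster on chromosome 6 and 9 in HIST2 and 3 in HIST3 on chromosome 1. The other 34 had no row matched and were not analysed here. Whether they have rows under other identifiers was not tested, so all sums by class and cluster cover the matched genes alone.

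All values come from LNCaP, an androgen-sensitive line of human prostate carcinoma cells, in the single group that the labels call control. Androgen was withheld for 48 h by replacing the serum with 10% charcoal stripped FBS (HEPES was at 10 mM), and then poly(A)+ RNA was taken from 2 biological replicates. Strand-oriented libraries with inserts of 150 to 250 bases were amplified by 12 PCR cycles and sequenced as pairs of 75 bases. The table holds both replicates in 1 column, so replicate error is unknown and no test between groups was possible. The intervals given are at 95% and include counting error alone.

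Replication-dependent histone genes supply the core and linker histones that package newly copied DNA, and their mRNAs are made mainly in S phase. These mRNAs end in a conserved stem-loop, which is bound by the protein SLBP, in place of a poly(A) tail, so selection of poly(A)+ RNA captures them poorly. Some of the genes also give longer, polyadenylated transcripts. Many H2A and H2B genes lie back to back and start from a shared region, and neighbouring genes of a cluster often point at each other.

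In the table, 9495309 read pairs were counted on genes, which is 6.39% of the 148700190 pairs placed uniquely, and 93.5% fell on no feature. The study's methods give the mapping of these libraries as library type fr-secondstrand and the counting of paired-end strand-specific data as reverse. If both settings applied, a gene's listed count is made of pairs transcribed from the strand opposite to it. A listed count is therefore not read here as the level of the histone mRNA. Of 10 prostate luminal and LNCaP markers, 9 were listed with at least 10 counts (median 43, range 8 to 6947). So were 3 of 5 stromal markers (median 13, range 6 to 1327) and 0 of 3 basal prostate markers. Over all 19404 protein-coding genes with a gene model, the share was 44.2%. KRT8 and KRT18, keratins of luminal epithelium with 525 exonic bases in common on opposite strands, had 6947 and 595 counts. HOXB13 and TMPRSS2 had 8 and 15, FN1 had 1327, COL1A1 had 6, KRT14 and TP63 had 1 each and KRT5 was at 0. With these settings, the counts do not check the identity of the line.

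The stem-loop was found in the genome sequence of all 36 genes, between 22 and 67 bases after the stop codon (median 36.5 bases). It was searched for as a stem of 6 pairs around a loop of 4 bases, within 200 bases of the stop codon. The stem had to start with GG and the loop with TT, so these bases were fixed by the search. Where no full stem was found, 1 G-T pair was allowed. There were 5 different sequences, and the gene with the highest listed count for each is shown with 5 bases on either side (GRCh37, strand of the gene). Capitals mark the paired bases of the stem.
H2AC18: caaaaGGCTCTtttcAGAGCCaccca
H2BC5: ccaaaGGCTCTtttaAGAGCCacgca
H4C3: ccaaaGGCCCTtttcAGGGCCgctca
H2AC11: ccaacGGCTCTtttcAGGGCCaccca
H2AC20: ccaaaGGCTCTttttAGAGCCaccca
These lie at chr1:149813785-149813810 (minus strand), chr6:26158810-26158835 (plus), chr6:26104540-26104565 (plus), chr6:27101289-27101314 (plus) and chr1:149858936-149858961 (plus). The form of H2AC18 was shared by 22 genes, that of H2BC5 by 8 and that of H4C3 by the 4 H4 genes, while the forms of H2AC11 and H2AC20 each occurred once. Listed counts ran from 0 to 239 (median 1) for the first form and from 0 to 54 (median 1) for the second, and each form had 3 genes with at least 10 counts. Among the H4 genes, H4C3 alone reached 10. H2AC11, whose stem holds a G-T pair, had 15 counts, and H2AC20 was at 0.

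Most of the histone genes were listed at or near 0. At least 1 count was listed for 22 of 36 (61.1%), beside 73.7% of the 19404 protein-coding genes of the table that have a gene model, and at least 10 counts for 8 of 36 (22.2%), beside 44.2%. A further 14 had 1 to 9 counts and 14 were at 0. The median was 1 count, beside 6 for all protein-coding genes. The 36 genes summed to 537 counts (exact Poisson interval 492.5 to 584.4), or 56.6 CPM (counts scaled to a library of standard size) and 0.00566% of all pairs counted on genes. For a gene at 0, the one-sided 95% limit is 3 counts, or 0.316 CPM, and the two-sided interval drawn in the plot of counts by class reaches 3.69 counts.

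Histone genes are short, and the distance from other genes depended on length. The median exonic length was 743.5 bases, beside 4489.5 for all protein-coding genes. Per kb of exon, the median of the histone genes was 0.986 counts, beside 1.22, and 9 of 36 (25%) reached 10 counts per kb, beside 20.6%. Of the 25 histone genes with up to 1000 exonic bases, 7 (28%) had at least 10 counts, beside 11.7% of the 1065 protein-coding genes of that length. The median of these 25 was 1 count, and the median of the 1065 was 0. The short histone genes were thus listed more often than all short protein-coding genes, a set that includes them. The whole set was listed less often than all protein-coding genes, and neither was tested.

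**Figure D1:**
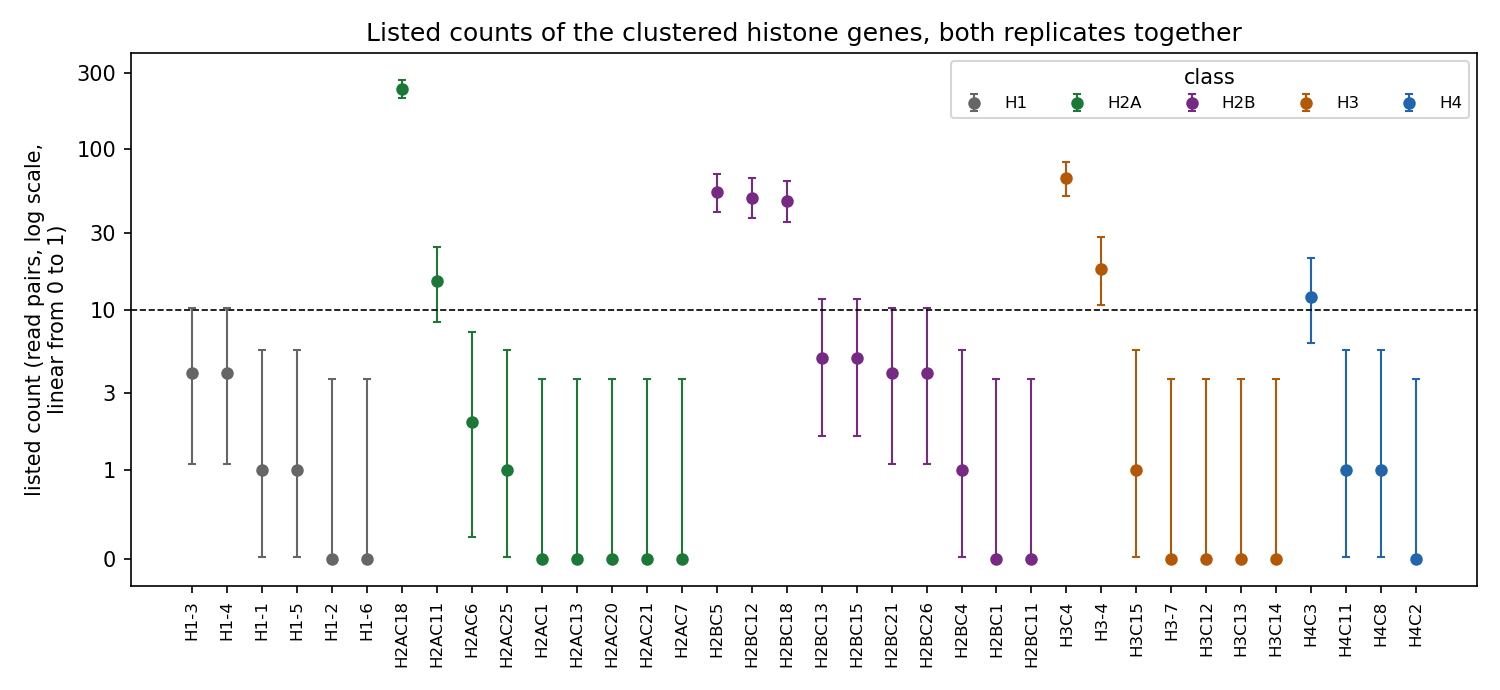
Listed count (read pairs of both replicates, log scale, linear from 0 to 1) of each of the 36 histone genes, grouped by class. Points are counts, bars are exact 95% Poisson intervals and the dashed line is at 10 counts. 8 genes lie above the line, and H2AC18 stands highest with 239.

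**Figure D2:**
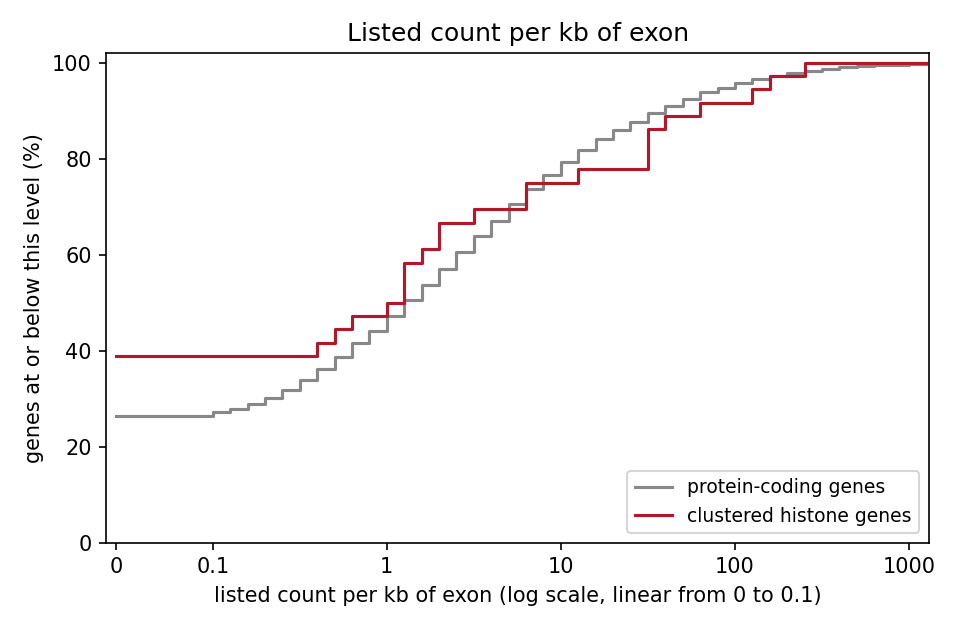
Share of genes (%) at or below each listed count per kb of exon (log scale, linear from 0 to 0.1, drawn in steps) for the 36 histone genes (red) and 19404 protein-coding genes (grey). The red line starts higher because 14 of 36 histone genes were at 0, beside 26.3% of the protein-coding genes. It lies below the grey line from about 8 to 200 counts per kb, furthest around 25, and narrowly near 5.

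The listed counts were concentrated in few genes. H2AC18 held 44.5% of the 537 counts (exact binomial interval 40.3 to 48.8%), the 5 highest genes held 85.1% (81.8 to 88.0%), and the 8 genes with at least 10 counts held 93.5%. The HIST2 genes together held 54.4% (50.1 to 58.6%), the HIST1 genes 41.3% and the HIST3 genes 4.28%. Without H2AC18, the sum over the other genes was 31.4 CPM.

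H2A proteins form the dimers with H2B that flank the H3 and H4 core of the nucleosome. Of 9 H2A genes, 2 had at least 10 counts, and the median was 0. H2AC18, a HIST2 gene at chr1:149813505-149814478 on the minus strand, had 239 counts (209.7 to 271.3), or 245 per kb of exon. That is the highest value of all 36 genes on both scales, and 92.5% of protein-coding genes had fewer counts. Every window of 75 bases in its exon occurs elsewhere in GRCh37, so it cannot be told from these counts which copy the pairs came from. The table lists alignments that are not unique in a category of their own, so these 239 pairs were counted as uniquely placed on a gene with no unique window of the read length. How they came to be so was not tested, and the share of HIST2 in the sum rests on them. Its nearest neighbour on the other strand, ENSG00000290791, shares 37 exonic bases with it and has no row matched here. H2AC11, a HIST1 gene at chr6:27100822-27101314 on the plus strand, had 15 counts (8.40 to 24.7), or 30.4 per kb, and none of its 75-base windows occurs elsewhere. H2AC6 had 2 counts and H2AC25 had 1. H2AC1, H2AC7, H2AC13, H2AC20 and H2AC21 were at 0. Of the 75-base windows of H2AC13, 61.3% occur elsewhere, so its 0 does not show an absence of pairs.

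The H2B class had the highest median count, 4.5 over 10 genes, and 3 genes with at least 10 counts. H2BC5, at chr6:26158350-26171577 on the plus strand, had 54 counts (40.6 to 70.5), or 62.7 per kb. H2BC12, at chr6:27114140-27114634 on the minus strand, had 50 counts (37.1 to 65.9), or 101 per kb. H2BC18, a HIST2 gene at chr1:149754245-149783928 on the minus strand, had 48 counts (35.4 to 63.6), or 26.7 per kb. The intervals of these counts overlap, so the order of the 3 genes by count is not resolved. Per kb of exon H2BC12 stood above H2BC18, with models of 495 and 1798 exonic bases. Per kb of coding sequence the values were 142.9 for H2BC5, 132.3 for H2BC12 and 119.1 for H2BC18, so the order depended on the length used. Part of 2 of these genes is repeated, with 39.0% of the 75-base windows of H2BC12 and 60.8% of those of H2BC18 found elsewhere. H2BC13 and H2BC15 followed with 5 counts each, H2BC21 and H2BC26 with 4 each and H2BC4 with 1, and H2BC1 and H2BC11 were at 0.

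H3 carries the tail on which many chromatin marks are written. Of 7 H3 genes, 2 had at least 10 counts, and the median was 0. H3C4, at chr6:26197012-26197514 on the minus strand, had 66 counts (51.0 to 84.0), or 131 per kb, the second-highest values of the set. H3-4, the H3 gene of HIST3 that is known for its testis protein, lies at chr1:228612546-228613061 on the minus strand and had 18 counts (10.7 to 28.4), or 34.9 per kb. None of the 75-base windows of either gene occurs elsewhere. H3C15 had 1 count, and H3-7, H3C12, H3C13 and H3C14 were at 0. 4 of the H3 genes are made largely of repeated sequence, with 100% of the windows of H3C14 and H3C15, 69.9% of those of H3C13 and 68.0% of those of H3-7 found elsewhere, so their counts of 0 or 1 do not show an absence of pairs.

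The matched genes of the remaining classes had few counts. Most H4 genes of the clusters had no row matched here, so the H4 values do not describe the class as a whole. H4, the partner of H3 in the core, had 14 counts over 4 genes, of which H4C3, at chr6:26104161-26104565 on the plus strand, held 12 (6.20 to 21.0), or 29.6 per kb. H4C8 and H4C11 had 1 count each and H4C2 was at 0. Of the 75-base windows of H4C11, 91.4% occur elsewhere. The linker histones H1, which bind DNA where it enters and leaves the nucleosome, had 10 counts over 6 genes and no gene with 10. H1-3 and H1-4 had 4 counts each, H1-1 and H1-5 had 1 each, and H1-2 and H1-6, the latter known from testis, were at 0. Per kb of exon, the class medians were 1.52 for H4, 1.49 for H2B, 1.29 for H1 and 0 for H2A and H3.

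By cluster, at least 10 counts were listed for 5 of 24 HIST1 genes (median 1), 2 of 9 HIST2 genes (median 0) and 1 of 3 HIST3 genes (median 4). The HIST2 sum of 292 counts came from H2AC18 and H2BC18 in all but 5 counts, from H2BC21 and H3C15. The HIST1 sum of 222 was spread over more genes, led by H3C4, H2BC5 and H2BC12.

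Repeated sequence touched a large part of the listed counts. In 9 genes, more than 25% of the exonic windows of 75 bases, the read length, were found elsewhere in GRCh37. These were H2AC18, H3C14 and H3C15 at 100%, H4C11, H3C13, H3-7, H2AC13 at 61.3%, H2BC18 and H2BC12. They held 339 of the 537 counts, and 3 of them had at least 10. The other 27 genes held 198 counts, and 5 of them, H3C4, H2BC5, H3-4, H2AC11 and H4C3, had at least 10. The median was 1 count in both sets. The table also lists 34171204 alignments that were not unique, and whether pairs of these genes were among them was not tested.

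The form of the gene model went with little difference in the median. Models of 1 exon (25 genes) had a median of 1 count and 6 genes with at least 10, and models of several exons (11 genes) also had a median of 1, with 2 such genes. In 23 genes the annotated model ends within 100 bases of the stem-loop, and 5 of these had at least 10 counts, with a median of 1. In the other 13 genes the annotation runs further, and 3 of these had at least 10, with a median of 2. H2AC18, H2BC5 and H2BC18 are those 3, and on the genome the annotation runs 285, 12747 and 29195 bases past their stem-loops. For H2BC5 and H2BC18 these distances include introns, as their exons hold 861 and 1798 bases in all. The models of H3C4 and H2BC12, with 66 and 50 counts, end 5 bases past the stem-loop.

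Since listed counts come from the opposite strand under the stated settings, the genes on that strand were examined. A convergent neighbour is a gene on the other strand that points at the histone gene from beyond its 3′ end, and 23 histone genes had one within 5 kb. Of these, 7 had at least 10 counts and the sum was 473. H2AC18 alone held 239 of these counts, and every 75-base window of its exon occurs elsewhere. Its convergent neighbour, H4C14, lies 2165 bases away and has no row matched here. Of the 13 genes without a convergent neighbour, only H2BC12 reached 10 and the sum was 64. The median was 1 count in both sets. The comparison changed with the reach. Within 2 kb the medians were 4 counts for 16 genes with a neighbour and 0.5 for 20 without. Within 10 kb they were 1 for 29 genes and 0 for 7. With only histone genes as neighbours, they were 0.5 for 10 genes and 1.5 for 26. A divergent neighbour within 1 kb of the start went with 4 of 20 genes at or above 10 counts, and its absence with 4 of 16.

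Exons of another gene lie opposite 6 histone genes. These had a median of 1 count, the same as the other 30, and 2 of them, H2AC18 and H2BC18, had at least 10. H2BC18 overlaps FCGR1A, an immunoglobulin Fc receptor gene, over 177 exonic bases, and FCGR1A had 89 counts. H2BC4, with 1 count, overlaps HFE, the haemochromatosis gene, over 430 bases, and HFE had 167 counts. H3-7 was at 0 although it shares 130 bases with ENSG00000230186, which had 47. H2AC21 was at 0 and shares 76 bases with BOLA1, which had 10. Under the stated settings, the count of each of these opposite genes comes in turn from the strand of the histone gene, so it is no measure of the transcription that the histone gene's own count would hold.

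Of the 8 genes with at least 10 counts, H3C4 alone had a histone pseudogene as its nearest opposite neighbour. H3C4, with 66 counts, faces the pseudogene H1-12P across a gap of 150 bases, and H1-12P had 74 counts (58.1 to 92.9), or 129 per kb. H2BC13, with 5 counts, faces the pseudogene H4C10P across 139 bases, and H4C10P had 34 (23.5 to 47.5), or 128 per kb. H4C3, with 12, lies in the span of an intron of H2BC4, which had 1. H3-4, with 18, overlaps the span of ENSG00000231563, which had 1. H2AC11, with 15, has H2BC11 at 0 behind it. The nearest opposite genes of H2BC5 and H2BC12, ENSG00000283064 and H2AC12, have no row matched here, as is the case for H2AC18. Among genes with fewer counts, H1-3 had the pseudogene H2AC9P at 0 as its nearest opposite neighbour and H1-1 had the pseudogene H3P26 at 0. Those of H1-4 (ENSG00000289117), H1-5 (H2AC16), H2BC15 (H2AC15), H3C15 (H4C15), H4C8 (ENSG00000289447), H4C11 (H4C12) and H4C2 (H4C1) have no row matched here.

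The genes between the outermost HIST1 members were described as well. Of 11 histone pseudogenes there, 3 (27.3%) had at least 10 counts, with a median of 0. The share over all pseudogenes was not computed, so this is not read as many or few. H1-12P and H4C10P have been given, and the third, H2AC5P, had 26 counts (17.0 to 38.1) and lies 275 bases behind H2BC3, which has no row matched here. Of 19 non-histone protein-coding genes in the same span, 4 had at least 10 (21.1%, median 0), beside 44.2% of all protein-coding genes. These were HFE with 167, ZNF391 with 27, TRIM38 with 11 and BTN3A2 with 10. Over all 3 clusters, 10 rows lie opposite a histone gene and within 5 kb beyond its 3′ end, with a median of 1 count. Of these, 3 (30%) were at or above 10, namely FCGR1A, H1-12P and H4C10P. They are of mixed types, and the share over all rows of the table was not computed.

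In 6 cases, both partners of a divergent H2A and H2B pair had a row, with 214 to 247 bases between their starts. H2A had the higher count in 2 pairs, H2B in 3, and 1 pair was at 0 on both sides. The largest difference was in H2AC11 and H2BC11, with 15 and 0 counts, and the smallest in H2AC1 and H2BC1, both at 0. H2AC6 and H2BC4 had 2 and 1, H2AC13 and H2BC13 had 0 and 5, H2AC20 and H2BC21 had 0 and 4, and H2AC25 and H2BC26 had 1 and 4. The 0 of H2AC13 is on a gene with 61.3% repeated windows, beside 2.39% for H2BC13. In 5 of the 6 pairs both counts were under 10, so differences in these pairs were not detectable at this depth. As a description of these 6 pairs, which share 1 table and its depth, Pearson's r of log2(CPM + 0.1) was -0.54 and Spearman's rho -0.47. Only 1 of the pairs has at least 10 counts in sum, so no relation between partners is read from these values.

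The regions between the starts of the pairs with the largest and the smallest difference are shown to compare their promoter elements. Both are read towards the H2B gene, and capitals mark the CCAAT element, the TATA box (searched as TATAAA) and the octamer (searched as ATTTGCAT) or their reverse complements, with overlapping matches joined.
H2AC11/H2BC11: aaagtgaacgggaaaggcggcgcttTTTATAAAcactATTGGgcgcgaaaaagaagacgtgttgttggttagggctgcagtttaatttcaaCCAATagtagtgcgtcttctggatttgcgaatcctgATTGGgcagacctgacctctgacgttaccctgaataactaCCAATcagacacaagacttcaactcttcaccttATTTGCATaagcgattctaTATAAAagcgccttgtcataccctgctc
H2AC1/H2BC1: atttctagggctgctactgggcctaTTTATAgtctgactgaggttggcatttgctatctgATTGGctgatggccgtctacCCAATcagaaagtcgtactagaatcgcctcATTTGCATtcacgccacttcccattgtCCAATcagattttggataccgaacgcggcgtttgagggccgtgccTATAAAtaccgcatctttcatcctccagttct
The first is chr6:27100575-27100821 on the minus strand and the second chr6:25726791-25727004 on the plus strand (GRCh37). The octamer, an element of H2B promoters that is bound by the factor encoded by POU2F1, stood once in each, pointing to the H2B gene. It did so in 4 of the 6 pairs, and these letters were not found between H2AC13 and H2BC13 or between H2AC25 and H2BC26. CCAAT pointed to H2B at 2 places in each of the regions shown, and to H2A at 2 places in the first and 1 in the second. The regions shown thus held the same kinds of element, with 15 and 0 counts on the genes of the first and 0 on both genes of the second. Under the stated settings these counts come from the strand opposite to each gene, so they are not read as output of the shared region.

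Promoter windows of RefSeq on GRCh38.p14, from 250 bases before to 50 after the start, were matched for 34 of the 36 genes. CCAAT on either strand was present in 31 of 34 (91.2%), beside 35.7% of all 27305 windows, and in 0 of 3 H4 genes. TATAAA was present in 24 (70.6%), beside 12.0%. ATTTGCAT was present in 13 (38.2%), beside 1.80%, namely in 6 of 9 H2A, 6 of 10 H2B and 1 of 6 H3 genes. The starts of the 6 divergent pairs lie 214 to 247 bases apart, so the windows of partners cover largely the same bases. An element between partners is then counted for both genes, and these shares are not of independent promoters. In none of the 6 regions between partners did ATTTGCAT point to the H2A gene. The median listed count was 1 for the genes with and 1 for the genes without each of these motifs. With an overall median of 1, and with 3 genes that lack CCAAT, these medians could hardly differ, and no relation of motif and count is read from them.

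The replication-independent histone genes, which have introns and polyadenylated mRNAs, reached 10 counts in a larger share, without a test. At least 10 counts were found for 8 of 15 (53.3%, median 15, range 0 to 1529), beside 44.2% of all protein-coding genes. For the clustered genes these were 8 of 36 and a median of 1. Per kb of exon, the median of the replication-independent genes was 2.44, beside 0.986 for the clustered and 1.22 for all protein-coding genes. The highest were MACROH2A1, a macroH2A variant, with 1529 counts and 4872 exonic bases opposite PITX1-AS1 and ENSG00000270021, and H3-3B, an H3.3 gene, with 797 and 179 bases opposite UNK. H3-5 and H2BW1 were at 0.

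Genes that make or handle histone mRNA and protein were described as lists by function. Over all protein-coding genes, the share with at least 10 counts was 44.2%. Of 14 genes of histone mRNA processing and histone gene transcription, 11 had at least 10 counts (78.6%, median 19). ZNF473, which encodes a zinc finger protein of the U7 snRNP pathway, had 284 and HINFP, a factor of H4 promoters, had 68, while LSM10, a U7 snRNP protein, and CSTF2, a cleavage factor, were at 0. The stem-loop binding protein gene SLBP had 28 and NPAT, a coactivator of histone genes, had 38. Of 7 histone chaperones, 5 had at least 10 (71.4%, median 75), with NASP at 329 and ASF1A at 123. CHAF1A and CHAF1B, subunits of the assembly factor CAF-1, were at 4 and 1. Of 18 genes of S phase and proliferation, 8 had at least 10 (44.4%, median 7.5), near the share over all protein-coding genes. TYMS, thymidylate synthase, was highest with 3265 and shares 1160 exonic bases with ENOSF1 and TYMSOS on the other strand. CCNE2, a cyclin of the G1 to S transition, followed with 281 and 1633 such bases. Such bases also went with few counts, as in CDK2 with 654 bases and 3 counts and CHAF1A with 101 and 4. A relation of shared bases and count was not tested. MCM3, CCNE1, CDC6 and TOP2A, all genes of dividing cells, were at 0. The strand settings apply to these counts as they do to those of the histone genes, and no state of proliferation was read from them.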

How the data were processed

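Poly(A)+ RNA of LNCaP cells without androgen was sequenced in 2 biological replicates. The study's methods and the submitters' processing notes name Trimmomatic 0.30, TopHat2 2.0.12 with Bowtie2 2.2.3, SAMtools and HTSeq 0.6.1p1, with hg19. The authors deposited whole-number counts of read pairs per gene, not normalized, with both replicates in 1 column. The 5 summary rows of htseq-count name no gene and were left out of the library size. They hold 93.5% (no feature) and 0.141% (ambiguous) of the uniquely placed pairs, and the alignments that were not unique. A column per replicate had been planned for, so no comparison of replicates was made.

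CPM was computed with all pairs counted on genes, where 1 count is 0.105 CPM. Ensembl identifiers were matched without version to GENCODE release 44 on GRCh37 (55538 rows), whose models may differ from those the authors counted on. Older symbols of RefSeq admitted H3-4 and H3-7. Windows of 75 bases were counted over the whole of GRCh37, a step tested on a simulated genome. Intervals are exact Poisson and exact binomial (Clopper-Pearson), and they do not allow for PCR copies, which cannot be recognised without molecular identifiers. Neighbours marked as yet to be experimentally checked in the annotation were not used. The text names the 5 highest genes of each class with their nearest opposite neighbour (ties at 0 without it), genes with over 25% repeated windows, the extreme divergent pairs, all genes at 0, and the 2 highest and 2 lowest of each list. SLBP, NPAT, CDK2 and the opposite genes of H2BC4, H3-7, H2AC21 and H2BC13 were named after their values were seen. The members and lists were chosen with earlier results of these data known. Python 3.11.15 with numpy 2.4.6, pandas 2.3.3, scipy 1.17.1, numba 0.67.0 and matplotlib 3.10.9 was used.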

Additional observations from a re-analysis of the deposited data

How the results depend on the processing

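The number of histone genes called with at least 10 counts (8 of 36) was 10 at a minimum of 5 counts and 5 at a minimum of 20. It was 5 in HIST1 alone, 5 among genes with at most 10% repeated windows and, in an alternative chosen after seeing the data, 7 without the older symbols. The sum of 56.6 CPM became 109.8 when the 3 highest rows of the table, which hold 48.5% of the pairs, were left out of the library size, and 3.61 with all uniquely placed pairs as the library size. It was 31.4 without H2AC18 and 20.9 without the genes with over 25% repeated windows, the latter chosen after seeing the data. The median per kb of 0.986 was 0.212 with introns in the length and 2.60 with coding sequence alone. The difference of medians by convergent neighbour, 0 at 5 kb, was 3.5 at 2 kb, 1 at 10 kb and -1 with histone neighbours only, and the cause was not tested. The median of 1 count was 4 among genes with at least 1 count, and 1 among genes with at most 10% repeated windows. The difference by opposite exons stayed 0 at 50 shared bases, and r was -0.56 with a pseudocount of 0.5. No paired analysis was possible because both replicates share 1 column, and for the same reason leaving out a replicate was not run. A correlation of pairs with at least 10 counts in sum could not be computed, as only 1 pair has that many. Depth limits the counts under 10, which 28 of the 36 genes have.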

Other observations

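Other rows within the spans of the clusters carried counts of the same order as the highest histone genes. They were chosen after their values were seen. In HIST2, RP11-277L2.5 had 249 counts, RP11-353N4.1 had 134, RP11-277L2.3 had 59 and ENSG00000230186 had 47, all annotated as noncoding. In HIST1, ENSG00000272558 had 196, HCG11 and the pseudogene POM121L6P had 32 each and ENSG00000271755 had 15. Of the rows that are neither histone genes or pseudogenes nor protein-coding, 5 of 19 (26.3%) in HIST2 and 4 of 39 (10.3%) in HIST1 had at least 10 counts. The median was 0 in both. The share of such rows over the whole table was not computed.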
